A study of Mus musculus with 8 samples.

Results

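The genes described here are 9 core homeostatic markers of microglia, the resident macrophages of the brain: Tmem119, Cx3cr1, Gpr34, Siglech, Fcrls, Sall1, Olfml3, Sparc and Slc2a5. They were taken by gene symbol, with the purinergic receptors left aside, and all 9 were found among the 35583 genes of the deposited tables. The study sorted microglia of young wild-type mice, taken from the hypothalamus 20 hours after an injection of plasma protein that carried a dye. Cells labelled plasma-positive and plasma-negative were sequenced in bulk by Smart-seq2, a full-length cDNA method for small amounts of RNA, with 4 libraries a group. Both groups share the genotype, the injection and the time. The labels used here give no strain, sex, exact age or sorting gate. They do not say whether each library came from its own animal, so p-values measure only the spread between these libraries, which may be technical.

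Microglia arise from yolk sac progenitors and maintain themselves in the brain. Their homeostatic state is marked by a set of surface receptors, secreted proteins and metabolic genes that depends on TGF-beta signalling and on the transcription factor Sall1. In disease models many of these genes fall while lysosomal and lipid-handling genes rise, and they are widely used as markers of microglial state.

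The 8 libraries held 2963094 to 21422738 counts, with plasma-negative replicate 4 the shallowest, and the 9 genes had 873 to 258755 counts in a library. Levels between libraries are given as CPM, the gene's count scaled to a common library size by the trimmed-mean method (TMM), and levels between genes as the authors' RPKM, which divides by exon length. Differences are plasma-positive minus plasma-negative on the log2 scale, tested with edgeR's quasi-likelihood F test and adjusted by the Benjamini-Hochberg method over 13277 genes. Genes under an adjusted p of 0.05 were called. Of all genes tested, 187 (1.41%) were called, 112 higher and 75 lower in plasma-positive cells. That split was 64 and 163 with library totals alone as the scale, 481 and 484 in DESeq2, 388 and 59 on log2(RPKM + 1) and 370 and 62 on log2(RPKM + 0.1).

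Of the 9 homeostatic genes 1 was called, Olfml3, which rose by 0.37 on the log2 scale, and 8 were not called. All 9 were abundant in every library of both groups. Their log2 differences lay between -0.11 (Cx3cr1) and 0.37 (Olfml3), with a median of 0.11 against 0.01 over all genes tested. The differences were above 0 for 8 of the 9 genes under TMM, but for 4 of the 9 both with library totals alone and after a correction for exon length and GC content, and for all 9 on log2(RPKM + 1). On that RPKM scale the median of the 9 was 0.24 and that of all genes 0.11. In CPM the groups did not overlap for 3 of the 9 genes, against 10.3% of all genes tested. Olfml3 and Fcrls were higher, 2 of 9 against 5.68% of all genes, and Cx3cr1 was lower, 1 of 9 against 4.59%. DESeq2 called 2 of the 9, Olfml3 and Fcrls, against 6.49% of all genes it tested. An unadjusted edgeR p under 0.05 was reached by 4 of the 9 genes, against 13.8% of all genes tested.

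Reference sequence just before the start site is shown for the gene that was called, Olfml3, and for a surface receptor that was not called, Siglech. Both stretches are from RefSeq on GRCm38.p6, are written 5′ to 3′ on the gene's own strand, and stop where an annotated exon begins. Capitals mark ACTTCC, the reverse complement of GGAAGT, a hexamer within the site of the myeloid transcription factor PU.1.
Olfml3, chr3:103738002-103738251, minus strand: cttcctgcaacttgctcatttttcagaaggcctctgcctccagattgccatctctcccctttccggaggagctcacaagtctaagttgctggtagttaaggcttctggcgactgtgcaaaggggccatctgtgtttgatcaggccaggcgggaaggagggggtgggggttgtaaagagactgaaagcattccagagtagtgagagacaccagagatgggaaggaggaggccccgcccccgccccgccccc
Siglech, chr7:55767934-55768177, plus strand: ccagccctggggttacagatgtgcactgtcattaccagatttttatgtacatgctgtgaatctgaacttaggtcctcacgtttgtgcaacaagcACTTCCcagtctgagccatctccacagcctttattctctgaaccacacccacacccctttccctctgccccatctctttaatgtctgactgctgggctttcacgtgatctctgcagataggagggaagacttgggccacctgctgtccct
The Olfml3 stretch held the hexamer on neither strand, and the Siglech stretch held it 156 to 151 bases before the RefSeq start. RefSeq windows were matched for 7 of the 9 genes and not for Tmem119 and Gpr34. In the 250 bases before a start, GGAAGT was present on either strand in 3 of the 9 member windows, 1 each of Siglech, Fcrls and Sall1 (which has 3 windows), against 19.7% of 32851 windows of that length. The Fcrls window lies mostly in annotated exon sequence, and its matches fall there. The hexamer GAGGAA, which overlaps GGAAGT in the PU.1 site by its last 4 letters, was present on either strand in 1 of the 9 (Fcrls), against 23.3% of windows. These matches are letters in a window, not sites.

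Per unit of exon length, Tmem119 was the most abundant of the 9 genes, at 2858 ± 316 RPKM (SD, n = 8 libraries), rank 11 of all genes. Cx3cr1 followed at 1888 ± 76.0 RPKM (rank 15) and Gpr34 at 1317 ± 162 RPKM (rank 22). Sparc had 1185 ± 108 RPKM (rank 27), Fcrls 991 ± 172 RPKM (rank 29) and Olfml3 721 ± 135 RPKM (rank 34). Then came Siglech at 376 ± 41.8 RPKM (rank 66), Slc2a5 at 349 ± 55.8 RPKM (rank 69) and Sall1 at 46.7 ± 5.91 RPKM (rank 686). The transcription factor was thus the scarcest of the 9, below the receptors, the secreted proteins and the transporter in all 8 libraries. Neighbours in this order overlapped in range for Gpr34 and Sparc, Sparc and Fcrls, Fcrls and Olfml3, and Siglech and Slc2a5. Within a library Gpr34 exceeded Sparc in 7 of 8 libraries and Siglech exceeded Slc2a5 in 5 of 8, while the other neighbours kept their order in all 8. The order depends on the length used for Sparc. With its longest coding transcript (2300 bases) in place of all its exons merged (3788 bases), its mean over the 8 libraries ranked 2 among the 9 genes and not 4. On that length Sparc lay below Cx3cr1 in the plasma-negative mean (2498 against 2571 CPM per kilobase) and above it in the plasma-positive mean (2605 against 2390).

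**Figure D1:**
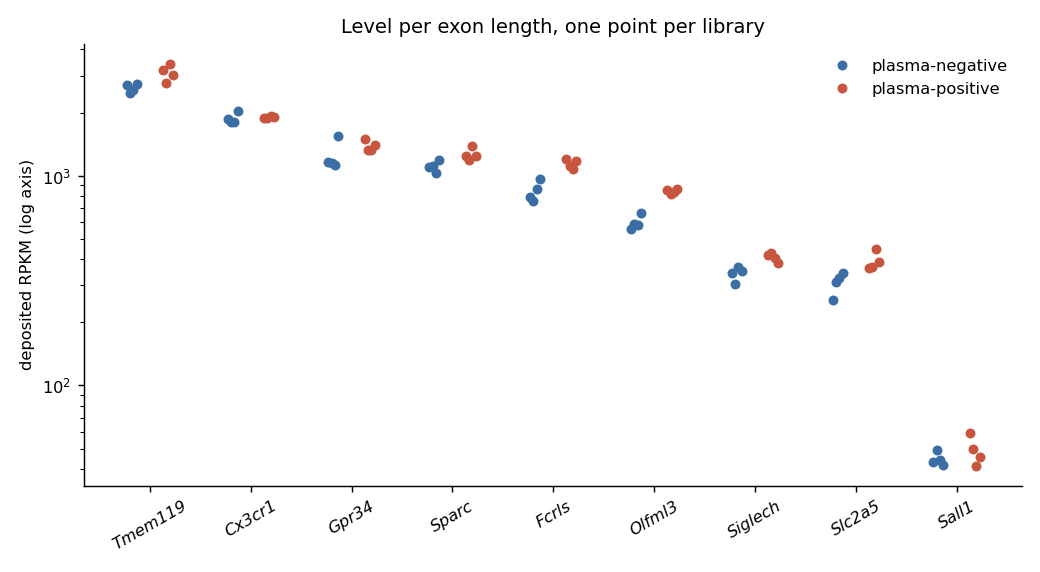
Level per exon length of each of the 9 genes (RPKM, log axis) in each of the 8 libraries, with plasma-negative and plasma-positive libraries in separate colours. Tmem119 sits highest at 2468 to 3405 RPKM and Sall1 lowest at 41.4 to 59.0 RPKM, and every gene is present in every library.

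The surface receptors Cx3cr1, Gpr34 and Siglech were not called. Cx3cr1, the receptor for the neuronal chemokine fractalkine (ENSMUSG00000052336, mm10 chr9:119901616-120069879), had 11457, 11295, 11179 and 12272 CPM in plasma-negative replicates 1 to 4. In plasma-positive replicates 1 to 4 it had 10645, 10412, 10781 and 11116 CPM. All 4 plasma-positive libraries lay below all 4 plasma-negative libraries, with only a small gap between 11116 and 11179 CPM. The difference of -0.11 (SE 0.04, 95% interval -0.19 to -0.02) was not called, with an edgeR adjusted p of 0.232. With library totals alone, which moved the median of all genes to -0.11, Cx3cr1 was called lower at -0.22 (edgeR adjusted p = 0.0045). After the length and GC correction it was also called lower, at -0.19 (edgeR adjusted p = 0.045), but not with a replicate block added to that correction (-0.19, edgeR adjusted p = 0.0611). On log2(RPKM + 1), where the median of all genes was 0.11, its value turned to 0.02 (limma adjusted p = 0.885). The exons of Cx3cr1 share 78 bases, a fraction of 0.0173 of their length, with the antisense gene Gm33858.

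Gpr34, a receptor for lysophosphatidylserine (ENSMUSG00000040229, chrX:13632089-13640858), had 3313, 3325, 3249 and 4313 CPM in plasma-negative libraries and 3923, 3403, 3464 and 3778 CPM in plasma-positive ones. The shallowest library, plasma-negative replicate 4, held the highest value, above every plasma-positive library, and the groups overlapped. The difference was 0.04 (SE 0.09, edgeR adjusted p = 0.913), and 0.15 without that library (edgeR adjusted p = 0.247). The interval of the 8-library difference was -0.16 to 0.23.

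Siglech, a receptor of the Siglec family that signals through the adaptor DAP12 (ENSMUSG00000051504, chr7:55768178-55778925), had 1598, 1432, 1714 and 1589 CPM in plasma-negative libraries. Its plasma-positive values were 1772, 1781, 1708 and 1671 CPM. Of the plasma-positive libraries 2 lay above all plasma-negative ones and the other 2 within their range. The difference was 0.13 (SE 0.07, interval -0.01 to 0.27, edgeR adjusted p = 0.419). It was 0.09 without plasma-negative replicate 2, 0.02 with library totals alone and 0.03 after the length and GC correction.

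Tmem119, a membrane protein used to tell microglia from other brain macrophages (ENSMUSG00000054675, chr5:113793729-113800516), had 8588, 7933, 8228 and 8457 CPM in plasma-negative libraries. Its plasma-positive values were 9181, 7907, 9807 and 9028 CPM. Plasma-positive replicate 2 held the lowest value of all 8 libraries and the other 3 plasma-positive libraries the highest. The difference was 0.11 (SE 0.06, interval -0.01 to 0.24, edgeR adjusted p = 0.427), and -0.07 after the length and GC correction. It was 0.17 without plasma-positive replicate 2 and 0.07 without plasma-positive replicate 3.

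Fcrls, an Fc receptor-like scavenger receptor (ENSMUSG00000015852, chr3:87250758-87263738), had 2537, 2454, 2778 and 2993 CPM in plasma-negative libraries. In plasma-positive libraries it had 3488, 3189, 3117 and 3535 CPM. All 4 plasma-positive libraries lay above all 4 plasma-negative ones. The difference was 0.31 (SE 0.07, interval 0.15 to 0.46), a 1.24-fold difference with an edgeR adjusted p of 0.0571, just short of the threshold. It was called in 6 of 20 alternatives, among them DESeq2 (0.29, adjusted p = 0.0116), the fit without plasma-negative replicate 4 (0.37, edgeR adjusted p = 0.0278) and an adjusted p threshold of 0.1. After the length and GC correction the difference was 0.13 (edgeR adjusted p = 0.447).

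**Figure D2:**
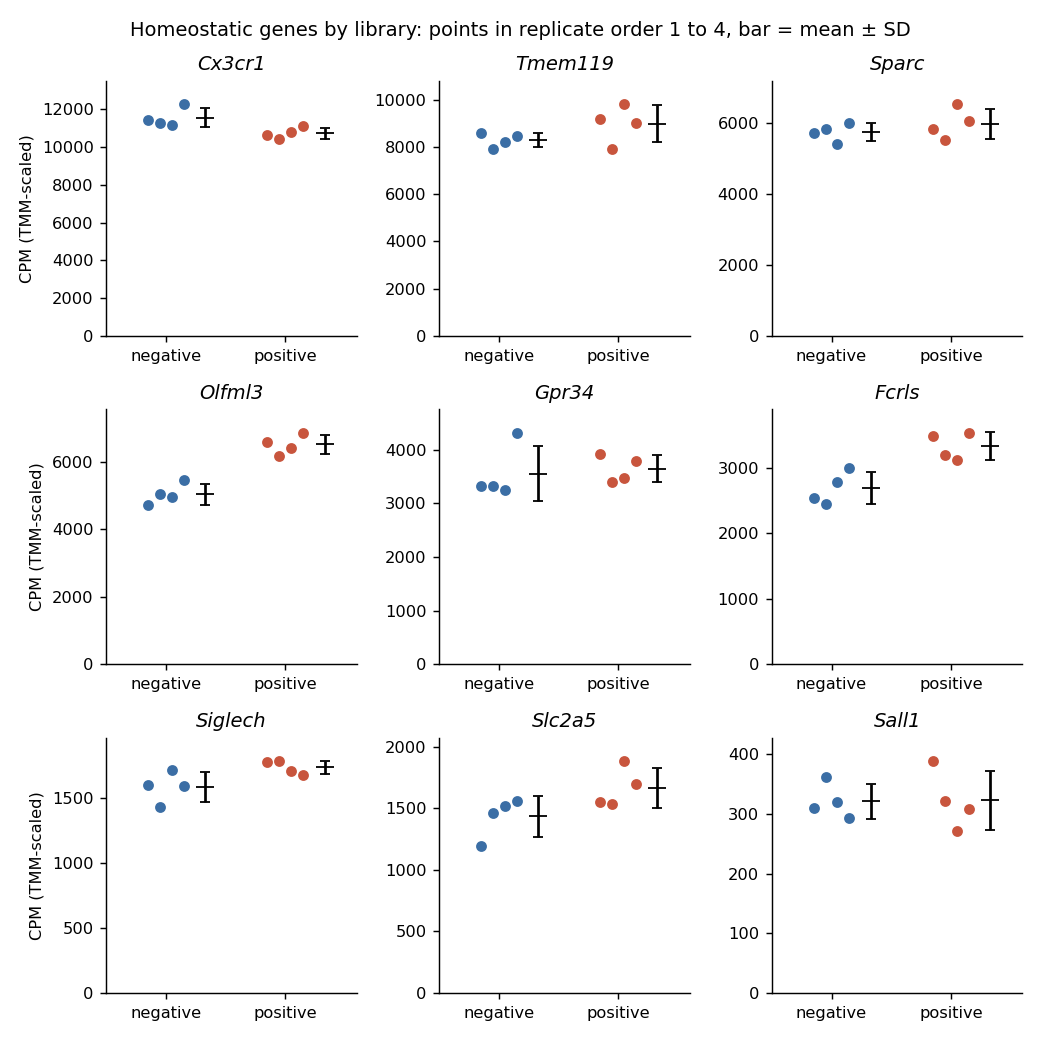
TMM-normalised CPM of each of the 9 genes, a panel a gene, with 4 plasma-negative and 4 plasma-positive libraries as points and group means with SD. The groups separate upward for Olfml3 (4717 to 5468 against 6188 to 6868 CPM) and Fcrls, separate downward for Cx3cr1, and overlap for the other 6 genes.

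Of the secreted proteins, Olfml3 rose and Sparc was not called. Olfml3, an olfactomedin-domain glycoprotein of the extracellular matrix (ENSMUSG00000027848, chr3:103722222-103738001), had 4717, 5044, 4949 and 5468 CPM in plasma-negative libraries. In plasma-positive libraries it had 6601, 6188, 6416 and 6868 CPM. Every plasma-positive library exceeded every plasma-negative one. The mean went from 5045 ± 314 to 6518 ± 288 CPM (SD, n = 4 each), a 1.29-fold increase (interval 1.19 to 1.40). The log2 difference was 0.37 (SE 0.05, edgeR adjusted p = 0.00647). Olfml3 was called in all 20 alternatives, with differences of 0.26 to 0.50 and adjusted p-values up to 0.0319. Of the 20, the threshold of 0.1 reuses the main fit, so its call could not be lost there. The length and GC correction left it at 0.37 (edgeR adjusted p = 0.0219).

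Sparc, a matricellular protein that binds collagen and calcium (ENSMUSG00000018593, chr11:55394500-55423183), had 5730, 5839, 5406 and 6006 CPM in plasma-negative libraries. Its plasma-positive values were 5847, 5523, 6541 and 6056 CPM. The groups overlapped, and plasma-positive replicate 3 was the highest library. The difference was 0.06 (SE 0.06, interval -0.06 to 0.18, edgeR adjusted p = 0.71), and 0.02 without that library. Between both secreted proteins the ratio of Sparc to Olfml3 CPM went from 1.14 ± 0.06 in plasma-negative libraries to 0.920 ± 0.067 in plasma-positive ones (SD, n = 4 each), without overlap.

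Slc2a5, the fructose transporter GLUT5 (ENSMUSG00000028976, chr4:150119283-150144169), had 1195, 1462, 1522 and 1555 CPM in plasma-negative libraries. Its plasma-positive values were 1547, 1531, 1883 and 1697 CPM. Plasma-negative replicate 1 was the lowest library, and the groups overlapped through plasma-negative replicate 4. The difference was 0.22 (SE 0.09, interval 0.01 to 0.42, edgeR adjusted p = 0.338), 0.14 without plasma-negative replicate 1, 0.10 with library totals alone and 0.04 after the length and GC correction.

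Sall1, the zinc finger factor that maintains microglial identity (ENSMUSG00000031665, chr8:89027235-89044162), had 309, 361, 319 and 294 CPM in plasma-negative libraries. Its plasma-positive values were 388, 322, 271 and 308 CPM. The highest and the lowest of the 8 libraries were both plasma-positive. The difference was 0.01 (SE 0.12, edgeR adjusted p = 0.99), with an interval of -0.26 to 0.27. It was the least precise of the 9 estimates, and folds from 0.833 to 1.21 lie within its interval.

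**Figure D3:**
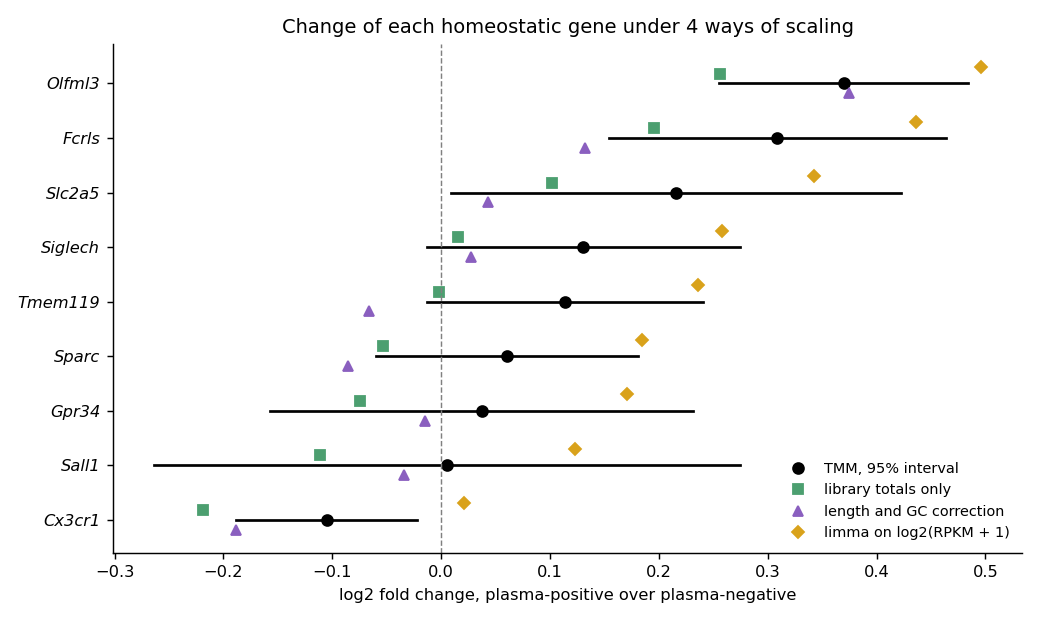
Log2 difference, plasma-positive minus plasma-negative, of each of the 9 genes: black points with 95% intervals are the edgeR fit under TMM (4 against 4 libraries), squares use library totals only, triangles the length and GC correction and diamonds limma on log2(RPKM + 1). Under TMM Olfml3 (0.37) and Fcrls (0.31) lie highest and Cx3cr1 (-0.11) is the only value below 0. Library totals and RPKM shift the genes left or right together. The length and GC correction moves them by unlike amounts, leaving Olfml3 at 0.37 and Fcrls at 0.13.

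Ratios between members within a library do not depend on the factor that scales the library. The length and GC correction differs by gene and would change them, and it was not applied here. Cx3cr1 and Olfml3 were taken as denominators after their values had been seen. Per Cx3cr1 count, Olfml3 stood at 0.412, 0.447, 0.443 and 0.446 in plasma-negative libraries and at 0.620, 0.594, 0.595 and 0.618 in plasma-positive ones. The ratio was 1.39 times higher in plasma-positive libraries, with a spread of 0.017 and 0.014 (SD) within the groups. Fcrls per Cx3cr1 went from 0.233 ± 0.016 to 0.310 ± 0.017, or 1.33 times higher. Together with Slc2a5 (1.25 times), Tmem119 (1.16 times) and Sparc (1.12 times), 5 of the 8 other members were higher relative to Cx3cr1 without overlap, against 8.01% of all genes, and 0 were lower, against 3.17%. Per Olfml3 count, 4 of the 8 other members were lower without overlap (Tmem119, Cx3cr1, Gpr34 and Sparc), against 13.3% of all genes. Fcrls per Olfml3 overlapped between the groups, at 0.533 ± 0.033 and 0.511 ± 0.018.

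**Figure D4:**
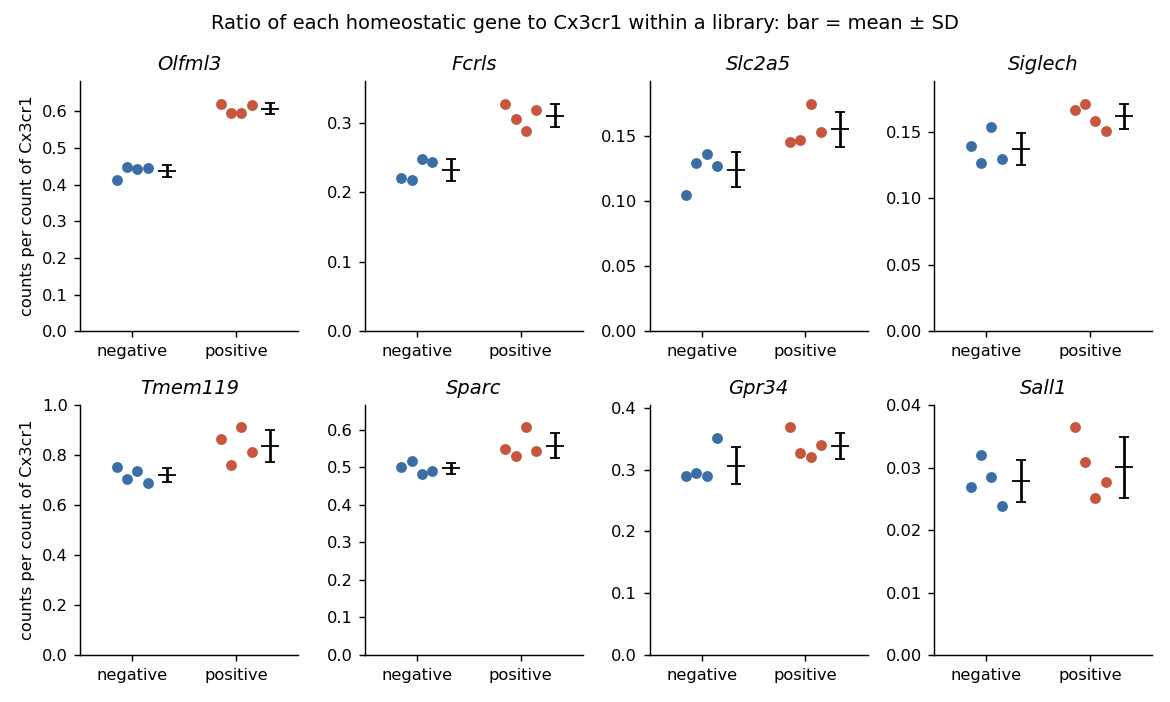
Count of each of the other 8 members divided by the Cx3cr1 count of the same library, with 4 libraries a group and group means with SD. Olfml3 goes from 0.437 to 0.607 and Fcrls from 0.233 to 0.310 without overlap, whereas Sall1, Siglech and Gpr34 overlap.

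The summed level of the 9 genes overlapped between the groups. It came to 40220 ± 1823 CPM in the plasma-negative group and 42923 ± 1803 CPM in the plasma-positive group (SD, n = 4 each), a log2 ratio of 0.09. As a share of all counts they took 4.17% ± 0.09 and 4.11% ± 0.13, a log2 ratio of -0.02. Within that sum Cx3cr1 went from 28.72% ± 0.28 in plasma-negative libraries to 25.03% ± 0.65 in plasma-positive ones. Olfml3 went from 12.5% ± 0.4 to 15.2% ± 0.4. In bulk samples fewer cells of a type and less RNA per cell cannot be told apart.

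Within groups the SD of log2 CPM ran from 0.05 (Cx3cr1) to 0.18 (Sall1). Csf1r, at a level close to that of Cx3cr1, had coefficients of variation of 4.38% and 2.53% in the plasma-negative and plasma-positive groups, against 4.28% and 2.74% for Cx3cr1. After the group means were subtracted, the 36 pairs of members had Pearson correlations from -0.54 to 0.85 over 8 libraries, with a median of 0.24 and 21 above 0. Gpr34 with Olfml3 (0.85), Cx3cr1 with Gpr34 (0.84) and Cx3cr1 with Olfml3 (0.82) were the 3 pairs above 0.8, and all 3 genes were highest among plasma-negative libraries in replicate 4. These correlations share the scaling factor of each library and are descriptions only. By the same measure, over 5176 genes with a mean of at least 32 CPM, the 3 genes most like Olfml3 were Atxn10 (0.951), Hdhd2 (0.949) and Rab1b (0.941), and those most like Cx3cr1 were Cbx1 (0.990), Rplp0 (0.984) and Tpst2 (0.967). Those most like Tmem119 were Pgm1 (0.962), Ctnnbip1 (0.959) and Stk17b (0.956), and those most like Siglech were Rtn4rl1 (0.973), Jak1 (0.968) and Ndst2 (0.950).

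Among 61 other genes of the homeostatic programme, all tested, 1 rose, 2 fell and 58 were not called, with a median difference of 0.02 and values above 0 for 32 genes. The called shares of all genes tested in that fit were 0.844% higher and 0.565% lower. The direction of this list depended on the scale: 1 rose and 5 fell with library totals alone (median -0.09), 6 rose and 6 fell in DESeq2, and 8 rose and 1 fell on both RPKM scales (median 0.15). Over all genes 64 rose and 163 fell with library totals, and 481 rose and 484 fell in DESeq2. On log2(RPKM + 1) 388 rose and 59 fell, and on log2(RPKM + 0.1) 370 rose and 62 fell. Csf1r, the receptor for the survival factors CSF1 and IL-34, rose from 10770 ± 471 to 13113 ± 332 CPM (SD, n = 4 each), a difference of 0.28 (SE 0.04, edgeR adjusted p = 0.0049). Its 4 plasma-positive libraries (12765 to 13559 CPM) lay above its plasma-negative ones (10471 to 11473 CPM), and it was called in all 20 alternatives. A fraction of 0.151 of its exon length is shared with Hmgxb3 on the opposite strand, and the strand setting of the counting is not given in the sources used here. Pag1, an adaptor that recruits the kinase Csk, fell from 308 ± 16.6 to 183 ± 18.0 CPM, by 0.75 on the log2 scale (SE 0.11, edgeR adjusted p = 0.00732). After the length and GC correction it stood at -0.56 (edgeR adjusted p = 0.0476), and with a replicate block added to that correction it was not called (edgeR adjusted p = 0.156). Nav3, a microtubule-associated navigator protein, fell from 476 ± 60.0 to 299 ± 21.4 CPM, by 0.67 (SE 0.11, edgeR adjusted p = 0.0137), and missed the threshold in 9 of 20 alternatives. After the length and GC correction Nav3 stood at -0.29 (edgeR adjusted p = 0.353).

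P2ry12, the ADP receptor of microglial processes, had 6375, 7396, 7213 and 9385 CPM in plasma-negative libraries and 8850, 8126, 8668 and 8295 CPM in plasma-positive ones. The groups overlapped, because plasma-negative replicate 4 held the highest value of all 8 libraries. The difference was 0.16 (SE 0.09, edgeR adjusted p = 0.493). Without that library P2ry12 was called higher, at 0.28 (edgeR adjusted p = 0.0367), and without plasma-negative replicate 1 it stood at 0.09 (edgeR adjusted p = 0.738). With library totals alone it stood at 0.05 and on both RPKM scales at 0.30, not called on either.

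Exon lengths are given here as a description, with no test. In the wider list 7 of 61 genes were higher without overlap, against 5.68% of all genes, and had a median exon length of 2548 bases (1014 to 5774). Another 7 were lower without overlap, against 4.59% of all genes, and had a median of 9580 bases (4336 to 16605). The 47 genes whose groups overlapped had a median of 4545 bases (985 to 19324). The 9 members had a median of 3402 bases (2090 to 6161), against 3975.5 over all genes tested. Olfml3 was the longest member, at 6161 bases. The fit that corrects exon length and GC content together moved the median of the 9 members from 0.11 to -0.01 and that of all genes from 0.01 to -0.04. The part of length alone was not tested.

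**Figure D5:**
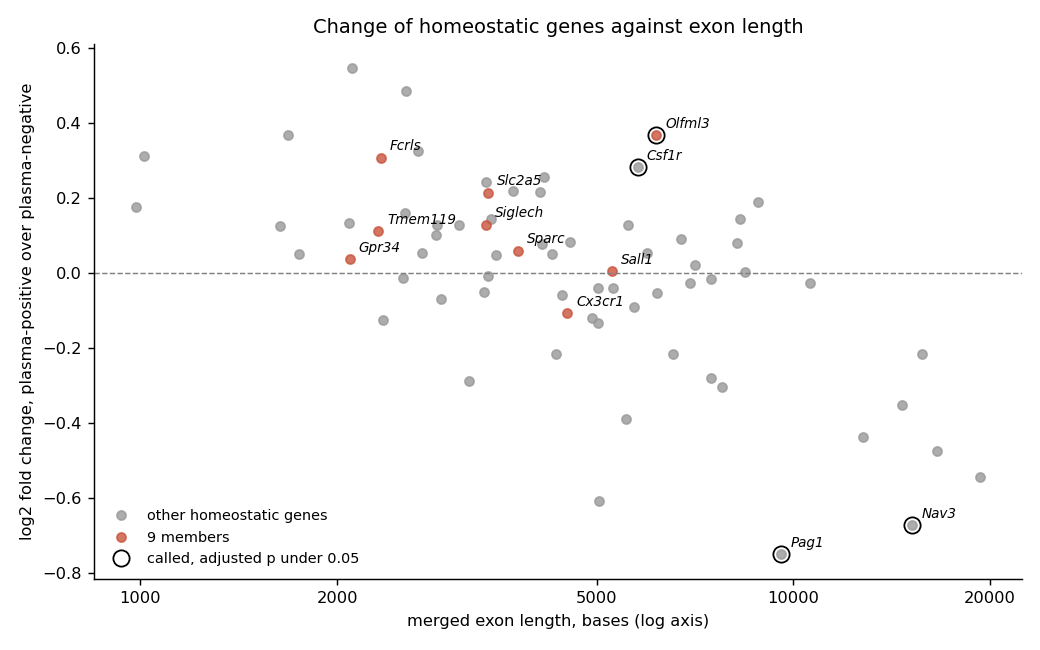
Log2 difference against exon length (bases, log axis) for the 9 members (red) and the 61 other homeostatic genes (grey), with called genes ringed. Olfml3 (6161 bases, 0.37) and Csf1r (5774 bases, 0.28) lie high among the longer genes, and Pag1 (9580 bases, -0.75) lies lowest of the homeostatic genes.

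Genes of the disease-associated programme, the lysosomal and lipid-handling counterpart of the homeostatic one, were read from the same fit. Of 23 tested, 7 rose and 0 fell, against 0.844% and 0.565% of all genes tested, and the median difference was 0.64 against 0.01. In the 20 alternatives 3 to 13 rose and 0 fell, with medians of 0.51 to 0.72. The lowest counts were 3 with the length and GC correction and a replicate block, and 4 both with that correction alone and without plasma-positive replicate 4. Over all genes 8, 56 and 41 rose in these fits, in that order. The 13 were on both RPKM scales, where 388 and 370 of all genes rose. The difference between the disease-associated genes and the 9 homeostatic members was not tested.

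Markers of other cells were low beside the members, which summed to at least 39144 CPM in each library. Summed border macrophage markers had 212 to 288 CPM in plasma-negative and 203 to 251 CPM in plasma-positive libraries. Lyve1, Cd163, F13a1 and Cd209f had 0 counts in all 8. Monocyte and neutrophil markers had at most 13.8 CPM in 7 libraries and 1044 CPM in plasma-positive replicate 3. That library held 5908 counts of S100a8 and 8481 of Ngp. Ly6g and Retnlg, of the same list, had 0 counts in all 8 libraries. So did Tek of the endothelial list and Kcnj8, Abcc9 and Lum of the mural and fibroblast list. Without plasma-positive replicate 3 Olfml3 stood at 0.38 (edgeR adjusted p = 0.0182). Neuron markers (4.71 to 35.4 against 14.9 to 356 CPM) and oligodendrocyte lineage markers (163 to 230 against 222 to 545 CPM) were highest in plasma-positive replicate 2. All 6 tested oligodendrocyte markers (median 1.26) and all 6 tested neuron markers (median 2.56) had differences above 0, and Cnp was higher without overlap (68.9 to 123 against 153 to 182 CPM, 0.71, edgeR adjusted p = 0.113). Among the tested markers of other cells only Pomc, a hypothalamic neuropeptide gene, was called. It had 0 counts in the plasma-negative libraries and 1.07 to 11.3 CPM in the plasma-positive ones. Pomc passed the expression filter only through the plasma-positive libraries. Its call and its part in the neuron median therefore lend no support to a difference. Without plasma-positive replicate 2 Olfml3 stood at 0.40 (edgeR adjusted p = 0.0166). Astrocyte (217 to 333 against 214 to 369 CPM) and endothelial markers (27.5 to 53.6 against 24.5 to 65.7 CPM) overlapped between the groups, and mural and fibroblast markers had at most 20.5 CPM. The astrocyte marker with the highest mean was Slc1a3 (238 ± 54.3 and 185 ± 14.7 CPM), which made up 164 of the 369 CPM in plasma-positive replicate 2. Among border macrophage markers Stab1 had the highest mean (228 ± 27.1 and 210 ± 23.9 CPM). The other 4 tested astrocyte markers had higher means in plasma-positive libraries, with differences of 1.58 (Aldoc), 1.96 (Sparcl1), 2.29 (Gja1) and 2.74 (Slc1a2). The other 3 tested border macrophage markers stood at 2.93 (Mrc1), 1.26 (Folr2) and -0.07 (Dab2), so that 2 of the 4 tested were above 0 and 2 below. None of these 7 markers was called, the groups overlapped for each, and their means were at most 22.6 CPM. Without plasma-positive replicate 2 and without plasma-positive replicate 3, in that order, the difference was 0.17 and 0.07 for Tmem119, 0.26 and 0.15 for Slc2a5, 0.10 and 0.02 for Sparc, and 0.07 and 0.06 for Gpr34. It was 0.33 and 0.34 for Fcrls, 0.12 and 0.14 for Siglech, -0.09 and -0.10 for Cx3cr1, and 0.01 and 0.08 for Sall1, and none of these 8 genes was called in either fit. Beyond these fits the part of the markers in the differences was not tested.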

How the data were processed

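Bulk Smart-seq2 RNA-seq was analysed from 4 plasma-negative and 4 plasma-positive libraries of hypothalamic microglia. The authors deposited whole-number read counts and RPKM per gene for 35583 genes on mm10. Per the file headers the counted alignments were top hits only, and bcl2fastq, Trim Galore, STAR and HTSeq are named in the submitters' processing notes, without versions. The strand and multi-mapping settings are not given in the sources used here. Above 1 RPKM, the deposited values equal the counts divided by merged GENCODE M21 exon length and by a factor for each library. This held within 1% for 99.5% of values. The factor was taken as each library's median and was not compared with its total counts. The tables held 16 per-sample columns (standard deviations) that were not used.

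Groups and replicate numbers were taken from the sample titles. Counts were scaled by TMM, filtered by filterByExpr and tested with edgeR 4.0.16 (quasi-likelihood F test, group as the only term, R 4.3.3), with Benjamini-Hochberg adjustment over 13277 genes. Alternatives were other scaling factors, other filters, DESeq2 1.42.0, limma 3.58.1 on log2(RPKM + 1) and log2(RPKM + 0.1), a replicate block, exon length and GC content fitted out of each library by loess (span 0.3), each library left out, and a threshold of 0.1. Totals ran from 2963094 to 21422738 counts, so Sall1 in the shallowest library rests on 873 counts. On simulated counts for 13277 genes with 200 changed by 1 on the log2 scale, 32 of 196 tested were called, all in the right direction, with 1 false call. Of 39 changed genes at 64 CPM or more, 27 were called. The members' differences were smaller, from -0.11 to 0.37, and changes of that size were not simulated.

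The members and gene lists were chosen with earlier results of these data known. Named were the 9 members, called genes of the wider homeostatic list, P2ry12 and Csf1r, the 3 genes closest to each of 4 members, and markers of other cells that were called or at 0. 1 further gene of the wider homeostatic list was left out of it and is not reported here. S100a8, Ngp, Cnp and the tested astrocyte and border macrophage markers fall outside this rule and were named after their values were seen. The counts of the disease-associated list in the alternatives were also added after seeing the data.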

Additional observations from a re-analysis of the deposited data

Results flagged for a closer look

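Plasma-negative replicate 4, the shallowest library, stood apart from the other 3 plasma-negative libraries for 3 of 30 group and measure combinations examined, by Dixon's test at the 95% level. Chance alone marks about 1 in 20 such groups, or 5%. Gpr34 had 4313 CPM there, against 3325 CPM in the next library. Csf1r had 11473 CPM, against 10577 CPM in the next library. The summed CPM of the 9 members was 42949, against 39443 in the next library. Without this library the difference of Gpr34 was 0.15 (edgeR adjusted p = 0.247), that of Csf1r 0.32 (edgeR adjusted p = 0.000717), and the log2 ratio of the sum 0.13.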

How the results depend on the processing

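Olfml3, Fcrls, Siglech, Slc2a5, Csf1r, P2ry12, Pag1 and Nav3 kept their direction in all 20 alternatives. Siglech fell to 0.016 with library totals alone and 0.028 after the length and GC correction, and Olfml3 and Csf1r were called in each alternative. Of the 20, the threshold of 0.1 reuses the main fit, so directions and calls could not be lost there. The count of 187 called genes became 215 with upper-quartile factors, 227 with library totals and 965 in DESeq2, where it was 6.49% of the genes tested. It became 447 on log2(RPKM + 1), 432 on log2(RPKM + 0.1) and 82 after the length and GC correction. At a threshold of 0.1 it was 407, and with a library left out 66 to 203. The member and list counts that follow stand beside these. Of the 9 members 2 were called with upper-quartile factors, library totals, DESeq2, both RPKM scales, the length and GC correction and the threshold of 0.1, and 1 to 2 with a library left out. The wider list's 3 calls became 5 with upper-quartile factors, 6 with library totals, 12 in DESeq2, 9 on both RPKM scales and at the threshold of 0.1, and 2 to 6 with a library left out. Fcrls was called with upper-quartile factors (0.33), DESeq2 (0.29), both RPKM scales (0.44) and the threshold of 0.1 (0.31), and ranged from 0.27 to 0.37 with a library left out.

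With library totals alone the difference was -0.22 for Cx3cr1, -0.0019 for Tmem119, -0.075 for Gpr34, -0.054 for Sparc and -0.11 for Sall1, and the log2 ratio of the sum was -0.020. That scale moved the median of all genes to -0.11. The length and GC correction gave -0.19 for Cx3cr1, -0.066 for Tmem119, -0.015 for Gpr34, -0.085 for Sparc and -0.034 for Sall1. Cx3cr1 was 0.021 on both RPKM scales, where the median of all genes was 0.11 and 0.16. Sall1 was -0.017 with relative log expression factors and -0.018 in DESeq2. With a library left out Sall1 ran from -0.094 to 0.083, and stood at -0.012 without plasma-negative replicate 1, -0.031 without plasma-negative replicate 4 and -0.094 without plasma-positive replicate 1. The cause of these changes was not tested.

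The replicate numbers were not shown to pair the libraries: deviations of same-numbered libraries correlated at 0.0109 to 0.0315, and 1 of 4 correlated best with its own number. With the replicate block 74 genes were called, Olfml3 stood at 0.37 (edgeR adjusted p = 0.0108) and Sall1 at -0.0016. With the replicate block and the length and GC correction together 12 genes were called, 1 of them in the wider list, and Tmem119 was -0.069, Gpr34 -0.014, Sparc -0.086 and Sall1 -0.044. Sall1 had the fewest counts of the 9 members, 873 in the shallowest library. Whether depth limits its precision was not tested.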
